A study of Mus musculus with 6 samples.

Results

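The transcripts of 9 genes that insert double bonds into fatty acids or lengthen their chains were followed in the livers of mice fed a high-fat diet (HFD). They were the stearoyl-CoA desaturases Scd1 and Scd2, the front-end desaturases Fads1 and Fads2, and the elongases Elovl1, Elovl2, Elovl3, Elovl5 and Elovl6. They were taken by gene symbol from a table of 45777 genes, and each had reads in enough libraries to be among the 17274 genes tested. Liver RNA was sequenced from 3 male Fpn flox/flox littermates (LT) and 3 male Alb-Cre; Fpn flox/flox mice (Fpn-LKO), all of the C57BL/6 strain and fed the HFD, with 1 library per mouse. Every mouse in both groups thus carried the floxed allele of Slc40a1, the gene of the iron exporter ferroportin (FPN), and the groups differ by the Cre transgene. The albumin promoter drives Cre in hepatocytes, and the paper describes the deletion as specific to them. The labels state neither the age of the mice nor how long they were fed. The design asks what the hepatocyte deletion of FPN does to liver transcripts under the HFD.

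Fatty acids that are made in the liver or taken up from food are reshaped on the membrane of the endoplasmic reticulum. SCD enzymes place the first double bond in a saturated chain and so make the monounsaturated acids that enter triglycerides and membranes. FADS enzymes add further double bonds to the essential fatty acids, and ELOVL enzymes catalyze the condensation step that lengthens a chain, each with its own preferred substrates. In liver, Scd1 and Elovl6 are known as targets of SREBP-1c and the liver X receptor, Fads1, Fads2, Elovl2 and Elovl5 serve the making of polyunsaturated fatty acids, and the desaturases are diiron enzymes that take electrons from cytochrome b5.

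Total counts on genes lay between 43086184 and 47778683 per library. Levels within a gene are given as CPM, the reads of the gene scaled to the size of its library after TMM correction. For Slc40a1 itself the LT libraries gave 154, 180 and 126 CPM and those labelled Fpn-LKO 143, 143 and 176 CPM (log2 fold change 0.0073, standard error 0.16). The deleted gene was thus not lower by its reads, which were counted over the whole gene. The paper reports loss of FPN from hepatocytes of these mice, also by immunostaining, and more iron in livers of HFD-fed Fpn-LKO mice. Those are measures other than these reads. Every direction below rests on the labels, also where libraries or livers labelled Fpn-LKO are called Fpn-LKO for short. Hepatocyte markers summed to between 85410 and 103090 CPM with overlapping groups. Of these 10 genes, 1 was higher and 0 lower at an unadjusted p under 0.05 in the edgeR quasi-likelihood fit. It was Ass1, at a log2 fold change of 0.68. Apob was lower without overlap (-0.18), as were 5.34% of all genes tested. The 8 adipocyte markers summed to between 1021 and 1708 CPM with overlapping groups, nearly all of it Car3. The defining genes Adipoq, Plin1, Lep and Retn had no read in any library, while Adrb3 had a log2 fold change of -2.10 (unadjusted p = 0.00888 in the edgeR quasi-likelihood fit) and DESeq2 called 1 gene of the list. Summed macrophage markers lay between 240 and 510 CPM, endothelial and stellate cell markers between 627 and 688 CPM, and blood cell markers between 352 and 1244 CPM. The groups overlapped in each of these sums. In the quasi-likelihood fit each of these lists had 1 gene higher and 0 lower at an unadjusted p under 0.05. Of all genes, 2.62% were higher and 2.19% lower. The genes were Gpnmb at a log2 fold change of 1.98 (4 to 42 reads per library), Lyve1 at 1.30 and Alas2 at 0.47. No read was found for 8 of 10 pancreas markers and 4 of 6 skeletal muscle markers. Cela2a, a pancreas marker with 0 to 62 reads per library, had a log2 fold change of -2.30 without overlap (unadjusted p = 0.0406 in the quasi-likelihood fit). In bulk tissue, fewer cells of a type and less RNA per cell cannot be told apart.

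None of the 9 genes passed the test between the groups. With the quasi-likelihood test of edgeR and Benjamini-Hochberg adjustment over all genes, their adjusted p-values lay between 0.982 and 0.995, against 4 genes called among all those tested (0.0232%). DESeq2's Wald test and edgeR's exactTest also called 0 of the 9, whereas over all genes they called 72 (0.417%) and 63 (0.365%). Before adjustment, 2 of the 9 had a p-value under 0.05, Elovl1 and Elovl3, both with higher means in the libraries labelled Fpn-LKO, where 4.80% of all genes tested lay under that level and 2.62% were higher. The fold change was positive for 4 of the 9 genes and negative for 5, with a median log2 value of -0.10 against -0.0040 over all genes tested. The groups did not overlap for 1 gene, Elovl1, which was higher in all 3 libraries labelled Fpn-LKO. Of all genes tested, 10.6% had groups that did not overlap, 5.25% with the Fpn-LKO libraries higher and 5.34% with them lower. Within groups, in contrast, several of these genes spread widely, and this spread set the width of the intervals.

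**Figure D1:**
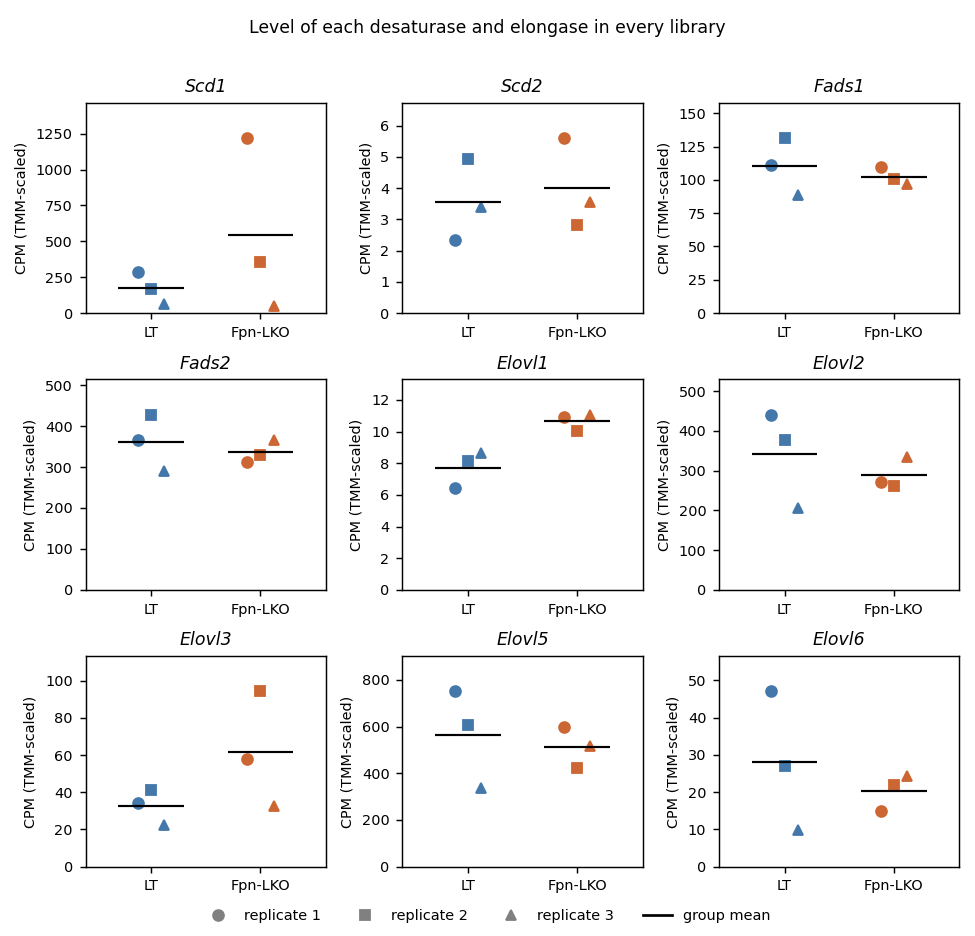
Each panel plots the CPM of 1 gene (vertical axis, linear from 0, TMM-scaled) in the 3 LT and the 3 Fpn-LKO libraries, with marker shapes for replicates 1 to 3 and a black line at the group mean. Only the Elovl1 panel shows groups that do not overlap, and Scd1 spans from 46.1 to 1222 CPM within the libraries labelled Fpn-LKO.

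Scd1, the main stearoyl-CoA desaturase of liver, was the most variable of the 9. The 3 LT livers stood at 283, 167 and 64.0 CPM, and Fpn-LKO replicates 1 to 3 at 1222, 357 and 46.1 CPM. The highest and the lowest library of all 6 both carried the Fpn-LKO label, and the groups overlapped. Group means were 171 ± 110 and 542 ± 610 CPM (SD, n = 3 each). The log2 fold change was 1.66 (standard error 1.01, 95% interval -0.69 to 4.01), with an adjusted p of 0.982 in the edgeR quasi-likelihood fit. As a fold, the interval reached from 0.620 to 16.2, so that neither a lower level nor a large increase lay outside it. The value depended strongly on single libraries, in both directions. Without Fpn-LKO replicate 1 the log2 fold change was 0.24. It was 2.21 without Fpn-LKO replicate 3 and 2.23 without LT replicate 1. Within the LT group the highest library was 4.42 times the lowest, and within the Fpn-LKO group 26.5 times. The lowest library still held 2138 reads of Scd1 and the highest 58312. That highest library also had the most Cfd, an adipocyte marker, at 2.01 CPM, with the 4 defining adipocyte genes at 0. Elsewhere Cfd was at 0.402, 0 and 0.0967 CPM in LT replicates 1 to 3 and at 0.107 CPM in Fpn-LKO replicate 2. Fpn-LKO replicate 3, the lowest library for Scd1, had the second highest Cfd at 0.647 CPM. A relation between Cfd and Scd1 was not tested.

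Scd2, which is known chiefly from brain and other tissues, was scarce in these livers. The LT libraries held 2.35, 4.94 and 3.41 CPM, and those labelled Fpn-LKO 5.62, 2.83 and 3.56 CPM. The groups lay on top of each other, with means of 3.57 ± 1.30 and 4.0 ± 1.45 CPM (SD, n = 3 each). The log2 fold change was 0.17 (standard error 0.36, 95% interval -0.67 to 1.00), and it turned negative when LT replicate 1 or Fpn-LKO replicate 1 was left out (-0.061 and -0.16).

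The Scd genes sit near each other on chromosome 19 of GRCm38, the build called mm10, with Scd1 at chr19:44394450-44407709 and Scd2 at chr19:44293676-44306864. Their coding sequences are close copies, which bears on how reads could be shared among them. Scd1 and Scd3 are identical at 90.4% of aligned coding positions and share a run of 185 bases, and Scd1 and Scd2 are identical at 89.6% and share a run of 147. The stretch below is the same part of all 4 coding sequences, 120 bases from GENCODE transcripts of GRCm38, starting at coding base 495 of Scd1, and capitals mark the bases that differ from Scd1.
Scd1: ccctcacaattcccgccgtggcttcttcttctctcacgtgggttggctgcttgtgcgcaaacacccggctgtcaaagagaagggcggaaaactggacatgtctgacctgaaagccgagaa
Scd2: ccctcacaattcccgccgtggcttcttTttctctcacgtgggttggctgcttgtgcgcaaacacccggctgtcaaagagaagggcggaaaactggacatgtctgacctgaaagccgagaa
Scd3: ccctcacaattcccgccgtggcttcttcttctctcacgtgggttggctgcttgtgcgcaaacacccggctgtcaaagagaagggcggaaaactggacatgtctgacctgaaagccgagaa
Scd4: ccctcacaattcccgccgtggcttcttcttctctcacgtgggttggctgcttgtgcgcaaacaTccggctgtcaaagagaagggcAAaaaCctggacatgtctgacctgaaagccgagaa
Scd3 matches Scd1 throughout this stretch, Scd2 differs at 1 base and Scd4 at 4, so a read from here could be counted to more than 1 gene. Over the whole transcripts the overlap was small. Of the windows of 100 bases, the length of a read, 126 of 4791 in Scd1 (2.63%) and 48 of 5356 in Scd2 (0.896%) also occurred in a transcript of another gene. For Elovl6 it was 57 of 6564 windows (0.868%, all shared with Gm11295), and for each of the other 6 genes it was 0.

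The front-end desaturases had the narrowest intervals of the desaturases, and both intervals included no change. Fads1, at chr19:10182877-10196874, stood at 111, 132 and 88.9 CPM in the LT livers and at 110, 101 and 97.0 CPM in those labelled Fpn-LKO. The Fpn-LKO values lay inside the LT range, with means of 111 ± 21.4 and 102 ± 6.59 CPM (SD, n = 3 each). The log2 fold change was -0.11 (standard error 0.16, 95% interval -0.48 to 0.25). Fads2, its neighbour at chr19:10062765-10101503, which acts before it in the chain of reactions, stood at 365, 428 and 289 CPM in LT livers and at 313, 330 and 365 CPM in Fpn-LKO livers. Here too the groups overlapped, with a log2 fold change of -0.10 (standard error 0.17, 95% interval -0.49 to 0.29). As folds, the intervals of Fads1 and Fads2 ran from 0.719 to 1.19 and from 0.711 to 1.22, and changes beyond these folds lay outside both intervals. Both values turned slightly positive when LT replicate 2 was left out (0.037 and 0.044), and that of Fads2 also on the log2(TPM + 1) scale in limma (0.0057). TPM is the authors' measure per transcript length, with an equal total in each library.

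Elovl1, at chr4:118426874-118432953, lengthens saturated and monounsaturated chains to very long ones that are used in sphingolipids. LT livers gave 6.43, 8.13 and 8.63 CPM, and those labelled Fpn-LKO gave 10.9, 10.04 and 11.1 CPM. All 3 Fpn-LKO values exceeded all 3 LT values. Group means were 7.73 ± 1.15 and 10.7 ± 0.561 CPM (SD, n = 3 each), 1.38-fold apart (log2 fold change 0.47, standard error 0.16, 95% interval 0.096 to 0.84). In the edgeR quasi-likelihood fit the unadjusted p was 0.0202 and the adjusted p 0.982, so the difference did not pass over all genes. An exact two-sided permutation test gave p = 0.1, the smallest that 3 against 3 allows, which follows from the lack of overlap. In the 14 alternatives the log2 fold change lay between 0.35 and 0.64. Its unchanged sign is no separate evidence, since the alternatives reuse the same libraries and the groups did not overlap.

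Elovl3, at chr19:46131897-46135694, is known for making very long chains and for its strong daily rhythm in liver. Its LT values were 34.3, 41.4 and 22.4 CPM, and its Fpn-LKO values 57.9, 94.3 and 32.7 CPM. The lowest Fpn-LKO library lay below 2 of the 3 LT libraries, so the groups overlapped. Group means were 32.7 ± 9.64 and 61.6 ± 31.0 CPM (SD, n = 3 each). The log2 fold change was 0.91 (standard error 0.38, 95% interval 0.022 to 1.81), with an unadjusted p of 0.0457 and an adjusted p of 0.982 in the edgeR quasi-likelihood fit. Without Fpn-LKO replicate 2 the log2 fold change was 0.47, and without Fpn-LKO replicate 3 it was 1.22. With the replicate number as a block in the same test it was 0.83 (standard error 0.15, unadjusted p = 0.00217, adjusted p = 0.685). Of 15 clock genes tested, 2 were lower and 0 higher at an unadjusted p under 0.05, where 2.19% and 2.62% of all genes were, and the median log2 fold change was 0.016. The 4 with the smallest p were Per3 at -0.53, Tef at -0.33, Clock at 0.22 and Arntl at 0.47. Of this list DESeq2 called 1 gene, Per3 (adjusted p = 0.0403), and exactTest 0. The hour at which livers were taken is not given in the sources used here, and its part in the level of Elovl3 was not tested.

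Elovl6, at chr3:129532386-129638495, extends palmitate to stearate, the substrate of SCD1. Its level was 47.1, 27.0 and 9.93 CPM in LT livers and 14.9, 21.8 and 24.5 CPM in Fpn-LKO livers. The LT libraries held both extremes, 4.74 times apart, and enclosed all 3 Fpn-LKO libraries. Group means were 28.0 ± 18.6 and 20.4 ± 4.95 CPM (SD, n = 3 each), with the log2 fold change at -0.46 (standard error 0.49, 95% interval -1.60 to 0.68). It was -0.86 without LT replicate 3 and 0.14 without LT replicate 1. Scd1 and Elovl6 thus had fold changes of opposite sign, and neither passed the test.

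The elongases of polyunsaturated chains, Elovl5 and Elovl2, were the most abundant elongases per transcript length. Elovl5, at chr9:77917365-77984519, which extends the products of FADS2, measured 751, 608 and 337 CPM in LT livers and 598, 424 and 516 CPM in Fpn-LKO livers. Elovl2, at chr13:41182382-41220403, which acts on longer polyunsaturated chains on the way to docosahexaenoic acid, measured 441, 376 and 205 CPM in LT livers and 271, 260 and 334 CPM in Fpn-LKO livers. For both genes LT replicate 1 was highest, LT replicate 3 lowest, and the Fpn-LKO libraries fell between them. The log2 fold changes were -0.14 (standard error 0.29, 95% interval -0.81 to 0.53) for Elovl5 and -0.24 (standard error 0.27, 95% interval -0.87 to 0.39) for Elovl2. Leaving out LT replicate 1 brought Elovl5 to 0.12 and Elovl2 to -0.0096, while leaving out LT replicate 3 brought them to -0.40 and -0.50. On the log2(TPM + 1) scale Elovl5 was at 0.014.

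Levels were compared between genes in TPM. Over the 6 libraries the median was 256 TPM for Elovl5, 168 for Fads2, 108 for Elovl2, 62.7 for Scd1, 41.4 for Fads1, 26.5 for Elovl3, 6.06 for Elovl1, 5.46 for Elovl6 and 0.816 for Scd2. In each library Elovl5 exceeded Fads2 and Fads2 exceeded Elovl2, although the ranges of these neighbours over libraries overlapped (140 to 380, 114 to 185 and 61.4 to 161 TPM). Scd1, from 12.6 to 313 TPM, overlapped every one of the 5 other genes with a median above 20 TPM, and in Fpn-LKO replicate 1 it was the most abundant of the 9. Fads1 (29.5 to 47.7 TPM) lay below Elovl2 without overlap and could not be separated from Elovl3 (13.6 to 74.7 TPM). Elovl1 (4.45 to 8.11 TPM) and Elovl6 (1.92 to 11.1 TPM) overlapped, and Scd2 (0.605 to 1.27 TPM) lay below every other member.

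**Figure D2:**
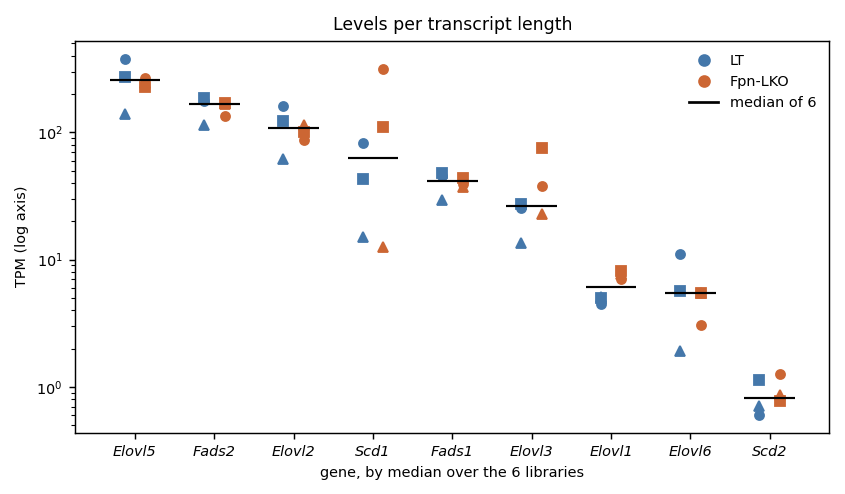
TPM of each gene (vertical log axis) in the 3 LT (blue) and 3 Fpn-LKO (orange) libraries, with a black line at the median of 6 and genes ordered by it; marker shapes stand for replicates as circles (1), squares (2) and triangles (3). Elovl5 lies highest at a median of 256 TPM and Scd2 lowest at 0.816, and Scd1 covers the widest span.

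Summed over the 9 genes, the level was 887, 712 and 381 TPM in LT and 889, 743 and 614 TPM in the libraries labelled Fpn-LKO, with overlapping groups. Scd1 made up 9.27%, 6.07% and 3.98% of this sum in LT and 35.2%, 14.9% and 2.05% in Fpn-LKO replicates 1 to 3. Without Scd1 the sums were 805, 669 and 366 TPM in LT and 576, 633 and 601 TPM in the libraries labelled Fpn-LKO. The range among LT mice was thus wider than that among Fpn-LKO mice once Scd1 was set aside.

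Ratios within a library do not depend on how libraries are scaled. The ratio of Fads1 to Fads2 was nearly the same in the LT livers, at 0.256, 0.258 and 0.258, and lay at 0.294, 0.256 and 0.223 in the libraries labelled Fpn-LKO. Its SD on the log2 scale was 0.0067 in LT and 0.20 in Fpn-LKO. The ratio of Elovl2 to Elovl5 was likewise close among LT livers (0.425, 0.447 and 0.440), against 0.328, 0.444 and 0.467 in Fpn-LKO replicates 1 to 3. Elovl5 to Elovl6 ranged from 34.2 to 86.4 over all libraries. Scd1 to Scd2 was 136, 38.2 and 21.3 in LT and 246, 143 and 14.6 in the libraries labelled Fpn-LKO. None of these 4 ratios passed an exact two-sided permutation test between the groups (p = 0.7 for Fads1 to Fads2, Elovl5 to Elovl6 and Scd1 to Scd2, and 0.9 for Elovl2 to Elovl5, where 0.1 is the smallest p possible). A difference in the spread of these ratios between the groups was not tested.

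Elovl2 varied together with Elovl5, Elovl6 and Fads2 from mouse to mouse. Over the 6 libraries, Pearson's r of log2 CPM was 0.943 between Elovl2 and Elovl6, 0.898 between Elovl2 and Elovl5, 0.833 between Fads2 and Elovl2, and 0.795 between Fads1 and Fads2. With group means removed these values were 0.944, 0.904, 0.823 and 0.781. For Scd1, r was 0.065 to Elovl2, 0.082 to Elovl6, -0.12 to Fads2, 0.430 to Elovl5 and 0.417 to Fads1, and its largest value was 0.687 with Elovl3. Elovl1 ran opposite to Elovl6, at -0.54 over all libraries and -0.81 within groups. These correlations are descriptions over 6 points that share libraries and scaling. LT replicate 3 was the lowest library for Fads1, Fads2, Elovl2, Elovl3, Elovl5 and Elovl6. In that library Spp1 was at 83.1 CPM, against 11.1 to 27.7 CPM elsewhere, which made up nearly all of the summed cholangiocyte markers there (84.4 CPM, against at most 29.9 elsewhere). The other 5 genes of that list did not follow, since Krt19, Krt7 and Cftr had no read in LT replicate 3 and Epcam (0.435 CPM) and Sox9 (0.846 CPM) lay within the range of the other libraries. Whether these values bear on the levels of the members was not tested.

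**Figure D3:**
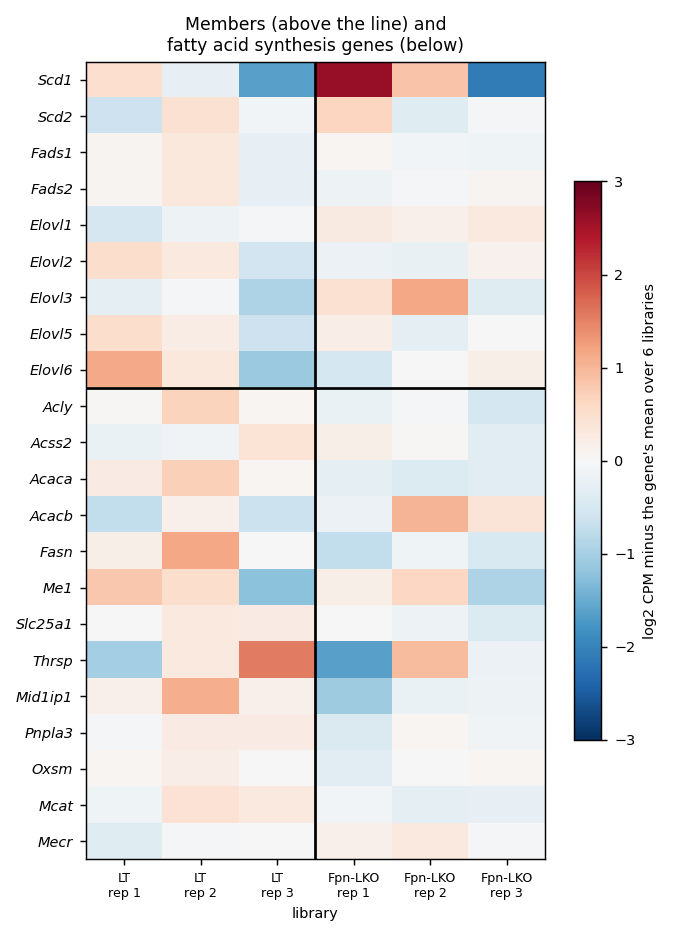
Heat map of log2 CPM minus the mean of the gene over 6 libraries (color scale from -3 to 3) for the 9 members above the black line and 13 fatty acid synthesis genes below it, with LT libraries on the left and Fpn-LKO libraries on the right. LT replicate 3 is lowest for Fads1, Fads2, Elovl2, Elovl3, Elovl5 and Elovl6, and Fpn-LKO replicate 1 holds the highest value of Scd1.

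Among 6872 genes with a mean of at least 10 CPM, the 3 whose pattern over the 6 libraries was most like each member were listed by Pearson's r. For Elovl5 they were Cyp4a14 (0.984), Gsr (0.980) and Psmd1 (0.980), and for Elovl2 they were Cd2ap (0.986), Ehhadh (0.983) and Pnisr (0.982). Cyp4a14 and Ehhadh encode enzymes of fatty acid oxidation that are textbook targets of PPARα. Fads1 was most like Rora (0.986), Arhgef10l (0.968) and Agpat3 (0.964), and Fads2 most like Rps6ka3 (0.971), LOC115486129 (0.969) and Rab33b (0.967). The closest gene was Sipa1l1 (0.992) for Scd1, Heatr5a (0.992) for Scd2, H2afj (0.994) for Elovl1, Aff4 (0.988) for Elovl3 and Dnmbp (0.989) for Elovl6. With so many candidates and 6 libraries, such values are reached by the best of the list for each member.

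Other desaturases and elongases were mostly scarce. Of 8 such genes, 4 had 0 reads in more than 1 library and were not tested, namely Scd3, Scd4, Degs2 and Elovl4. Elovl7, which extends long chains, stood at 0.623, 0.346 and 0.290 CPM in LT livers and at 1.17, 0.750 and 1.25 CPM in Fpn-LKO livers. Its groups did not overlap (log2 fold change 1.32, standard error 0.44), with an unadjusted p of 0.0178 and an adjusted p of 0.982 in the edgeR quasi-likelihood fit. Fads3, next to Fads2 on chromosome 19, stood at 1.17, 1.11 and 0.967 CPM in LT livers. In Fpn-LKO livers it was at 0.650, 0.900 and 0.797 CPM, without overlap (log2 fold change -0.46, standard error 0.32). In the same fit its unadjusted p was 0.181 and its adjusted p 0.982, from 31 to 58 reads per library. Of all genes tested, 5.25% were higher and 5.34% lower in the Fpn-LKO libraries without overlap. Fads6 and Degs1, the desaturase of ceramide synthesis, had log2 fold changes of 0.088 and 0.026.

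None of the partner genes of these enzymes passed the test. The elongation cycle is completed by a ketoacyl reductase (Hsd17b12), dehydratases (the Hacd genes) and a final reductase (Tecr). Of its 6 genes tested, 0 lay under an unadjusted p of 0.05 by edgeR's quasi-likelihood test, where 4.80% of all genes lay. The median log2 fold change was 0.061. Hsd17b12 was at 0.077, Hacd2 at 0.15, Hacd3 at -0.19 and Hacd4 at 0.18. Of the 5 electron donors of desaturation tested, cytochromes b5 and their reductases, likewise 0 did so, with a median of 0.086. Cyb5r3 was at 0.25, Cyb5b at 0.24, Cyb5r1 at 0.086 and Cyb5r4 at -0.023. DESeq2 and exactTest called 0 genes of either list.

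The fatty acid synthesis genes had mostly negative fold changes. Of 13 tested, 6 were lower and 1 higher at an unadjusted p under 0.05, where 2.19% and 2.62% of all genes were, and 0 passed the adjustment in any of the edgeR quasi-likelihood, DESeq2 and exactTest fits. Their median log2 fold change was -0.36 against -0.0040 over all genes. Acaca, the acetyl-CoA carboxylase of synthesis, was at -0.71 (unadjusted p = 0.00382 and adjusted p = 0.747 in the edgeR quasi-likelihood fit). Fasn, fatty acid synthase, was at -0.96, Mid1ip1, an activator of the carboxylase, at -0.95, and Acly, which supplies acetyl-CoA, at -0.54. Mcat was also among the lower genes, at -0.41, and the 1 higher gene was Acacb at 0.84. Fasn stood at 88.8, 177 and 79.8 CPM in LT livers and at 47.2, 72.2 and 58.2 CPM in Fpn-LKO livers, without overlap. Fpn-LKO replicate 1, the library with the highest Scd1, had the lowest Fasn. Whether the fold changes of Scd1 and Fasn differ from each other was not tested.

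**Figure D4:**
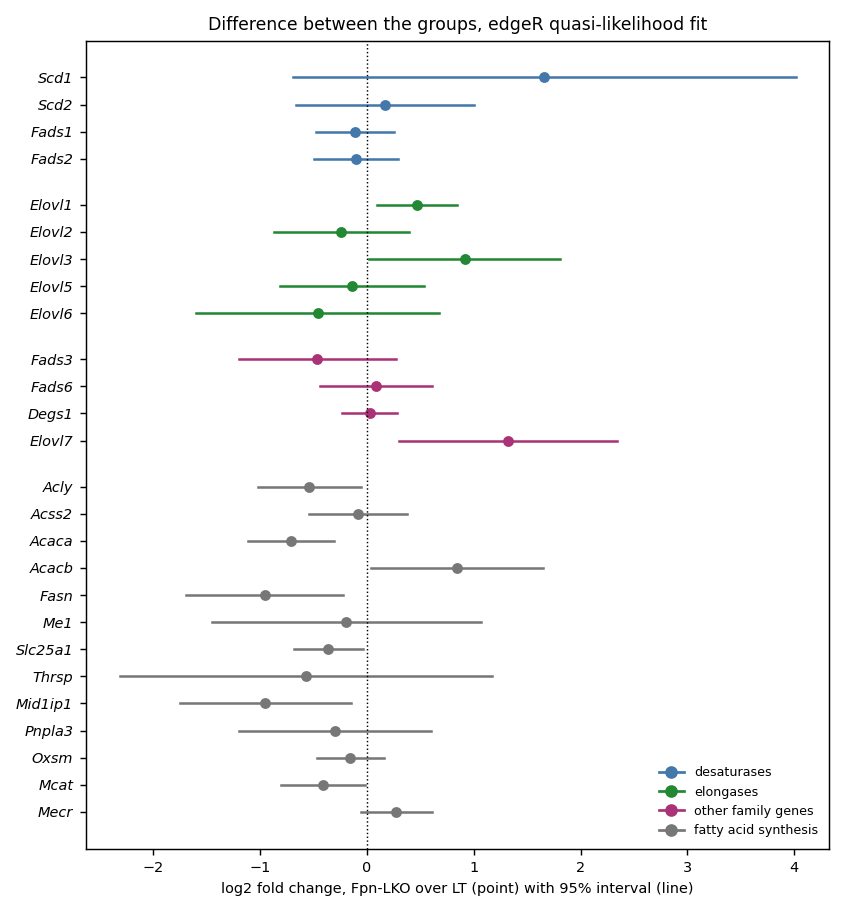
Log2 fold change of Fpn-LKO over LT (horizontal axis) with its 95% interval for the 4 desaturases, the 5 elongases, 4 other family genes and 13 fatty acid synthesis genes, from the edgeR quasi-likelihood fit. The intervals of 7 of the 9 members include 0, that of Scd1 is the widest of the 9, and those of Acaca and Fasn lie below 0.

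Among 19 transcriptional regulators of these genes, 2 were higher and 1 lower at an unadjusted p under 0.05. Of all genes tested, 2.62% were higher and 2.19% lower at that level. The median log2 fold change of the 19 was -0.035. Srebf1, which encodes SREBP-1, was at -0.52 (standard error 0.26), Mlxipl, which encodes ChREBP, at -0.12 (standard error 0.13), and Ppara at -0.053 (standard error 0.17). Nr1h3, the liver X receptor alpha gene, was at 0.24 (standard error 0.095), Mlx at 0.23 and Mbtps2, a protease that releases SREBP, at 0.64. Insig1, which holds SREBP in the endoplasmic reticulum, stood at 137, 125 and 158 CPM in LT livers and at 83.0, 81.3 and 83.0 CPM in Fpn-LKO livers. It did not pass edgeR's quasi-likelihood test (log2 fold change -0.76, adjusted p = 0.382), but passed DESeq2's Wald test (adjusted p = 0.000146) and edgeR's exactTest (adjusted p = 0.00529). The adjusted p over all alternatives lay between 0.000146 and 0.863.

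Genes that activate, remodel or shorten the products gave few values under an unadjusted p of 0.05. Of 14 acyl-CoA synthetase and remodelling genes tested, 0 were higher and 1 lower at an unadjusted p under 0.05. Over all genes tested, 2.62% were higher and 2.19% lower at that level. The 1 lower gene was Acsl3 at -0.74 on the log2 scale, and the median of the 14 was -0.11. Slc27a2 was at -0.31, Acsl5 at -0.26 and Mboat7, which places arachidonate in phosphatidylinositol, at 0.30. Of 11 genes of peroxisomal shortening, 0 were higher and 1 lower at that level, against the same 2.62% and 2.19% of all genes. The lower gene was Decr2 at -0.34, and the median of the 11 was -0.11. Acaa1a was at -0.18 and Eci2 at -0.20. The 20 cholesterol synthesis genes, which share SREBP control, had 10 lower and 0 higher at an unadjusted p under 0.05, where 2.19% and 2.62% of all genes were, and a median of -0.43. Idi1, Msmo1, Sqle and Fdft1 were at -1.35, -1.05, -1.25 and -0.53. The quasi-likelihood fit called 0 of the 20 after adjustment, whereas DESeq2 and exactTest each called 3, Idi1, Msmo1 and Sqle.

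Upstream sequence from RefSeq (GRCm38.p6) was at hand for 5 of the 9 genes, and the 3 stretches of genes with 1 listed start are shown, since Elovl1 and Elovl2 have 2 each. Over the 6 libraries, r of log2 CPM was 0.792 between Elovl5 and Elovl6, 0.740 between Fads2 and Elovl6 and 0.639 between Fads2 and Elovl5. Each is the 250 bases before the annotated start, 5′ to 3′ on the strand of the gene, and capitals mark matches on either strand to CCAAT, to the GC box GGGCGG or to the E-box CACGTG.
Elovl5 (chr9:77917115-77917364, plus strand): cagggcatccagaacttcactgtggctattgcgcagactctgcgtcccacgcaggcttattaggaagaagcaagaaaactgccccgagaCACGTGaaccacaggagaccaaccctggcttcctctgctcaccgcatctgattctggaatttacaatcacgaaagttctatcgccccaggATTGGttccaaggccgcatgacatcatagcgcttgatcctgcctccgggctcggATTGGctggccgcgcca
Elovl6 (chr3:129532136-129532385, plus strand): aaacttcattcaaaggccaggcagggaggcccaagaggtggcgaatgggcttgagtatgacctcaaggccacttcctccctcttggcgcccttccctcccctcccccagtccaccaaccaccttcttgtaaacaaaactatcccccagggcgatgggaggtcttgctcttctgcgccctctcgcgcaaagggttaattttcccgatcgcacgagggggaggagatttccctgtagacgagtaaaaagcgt
Fads2 (chr19:10101504-10101753, minus strand): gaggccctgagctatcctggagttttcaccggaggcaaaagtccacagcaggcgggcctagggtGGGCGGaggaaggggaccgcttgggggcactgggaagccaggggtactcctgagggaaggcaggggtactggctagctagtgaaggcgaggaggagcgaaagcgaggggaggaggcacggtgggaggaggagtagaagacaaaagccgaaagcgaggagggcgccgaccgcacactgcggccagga
Elovl5 holds a pair of CCAAT boxes, each read here on the opposite strand, and 1 E-box. Elovl6 holds none of these motifs, and Fads2 holds 1 GC box. Over 32851 RefSeq promoters of the same length, 33.8% held CCAAT, 32.7% GGGCGG and 6.02% CACGTG. The sterol regulatory element was searched as TCACNCCAC, which 1.05% of promoters held, and the TATA box as TATAAA, which 12.4% held, and neither occurred in the 7 upstream stretches of Elovl1, Elovl2, Elovl5, Elovl6 and Fads2. These are matches of letters within 250 bases and say nothing about binding.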

How the data were processed

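Liver RNA of 3 LT and 3 Fpn-LKO mice was sequenced by the authors as paired reads of 100 bases, and reads were aligned to mm10. The labels name a stranded mRNA kit, whereas the methods describe removal of ribosomal RNA from total RNA. The submitters' processing notes list HISAT2 2.1.0, Bowtie2 2.3.4.1 and StringTie 2.1.3b without their roles, and the annotation release is not given in the sources used here. The authors deposited read counts per RefSeq gene from StringTie without normalization, FPKM per kilobase of transcript and sequencing depth, and TPM with an equal sum for each library.

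The counts as deposited were tested with edgeR 4.0.16 in R 4.3.3 (quasi-likelihood, TMM, genes with 0 reads in more than 1 library left out, Benjamini-Hochberg over 17274 genes, threshold 0.05). Intervals are at 95%. The study's methods name exactTest, which was an alternative here, together with RLE size factors, DESeq2 1.42.0, filterByExpr or any gene with 1 read or more as the filter, a block for the replicate number, and leaving out each mouse. On TPM, limma 3.58.1 was run with a pseudocount of 1 or 0.1 before log2, over genes whose mean reached 1 TPM. Ratios used the deposited TPM, and FPKM or counts as alternatives. The scripts were tested on simulated data.

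The members and all gene lists were chosen with earlier results of these data known. Named were the members, Slc40a1, the other desaturases and elongases, the 4 genes of each list with the smallest p, Srebf1, Mlxipl, Nr1h3 and Ppara. Of the 3 genes most like each member, all were named for Elovl2, Elovl5, Fads1 and Fads2. For the other members only the closest was named. A gene that this rule names is not reported here. The cell type markers, Mcat and Acacb were named after their values were seen. No pair of libraries in a group held the same counts within sampling noise. The labels give each mouse its own replicate, and p-values measure the spread between mice. The common biological coefficient of variation for that spread was 0.275. At total counts of 43086184 to 47778683, counting error is small beside it for genes with many reads. Elovl7 (12 to 58 reads per library) and Fads3 (31 to 58) are too scarce for that. Intervals over reads of 1 library and limits from a count of 0 (3 reads) cover counting error only.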

Additional observations from a re-analysis of the deposited data

Results flagged for a closer look

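Scd3 and Scd4, the copies of Scd1 that were left out of the test, had reads in 1 library only. Scd3 had 147 reads and Scd4 had 6 in Fpn-LKO replicate 1, and both had 0 in the other 5 libraries. They drew attention because they are signals in genes outside the comparison, above the limit of 3 reads that a count of 0 allows. That library also held the most Scd1 reads, 58312 against 2138 to 16682 elsewhere. Scd3 came to 0.252% of the Scd1 reads there, while 0 reads allow at most 0.0180% in Fpn-LKO replicate 2, 0.0213%, 0.0416% and 0.113% in LT replicates 1 to 3, and 0.140% in Fpn-LKO replicate 3. Since Scd1 and Scd3 share a run of 185 coding bases, reads of one can be counted to the other, and the part of shared reads in these counts was not tested.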

How the results depend on the processing

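The number of members called was 0 under all 14 alternatives. The number of genes called, 4, became 72 with DESeq2, 63 with exactTest, 7 with limma on either TPM scale and 0 with the replicate number as a block, and ranged from 0 to 6 when single mice were left out. The median of all genes shifted to 0.083 and 0.097 on these TPM scales, where Fads2 (0.0057 and 0.0059), Elovl5 (0.014 and 0.015) and Ppara (0.072 and 0.073) turned positive. Scd2, whose mean TPM is under 1, had no value there. Leaving out single mice moved the log2 fold changes of Scd1 between 0.24 and 2.23, Elovl1 between 0.35 and 0.56, Elovl3 between 0.47 and 1.22 and Elovl2 between -0.50 and -0.0096, all without a change of sign. The sign changed for Scd2 (-0.16 to 0.48), Fads1 (-0.25 to 0.037), Fads2 (-0.24 to 0.044), Elovl5 (-0.40 to 0.12), Elovl6 (-0.86 to 0.14), Slc40a1 (-0.11 to 0.14), Fads6 (-0.077 to 0.28), Degs1 (-0.058 to 0.070) and Ppara (-0.18 to 0.11), and for the log2 ratios of Scd1 to Scd2 (-0.065 to 1.97), Fads1 to Fads2 (-0.11 to 0.091), Elovl5 to Elovl6 (-0.18 to 0.43) and Elovl2 to Elovl5 (-0.20 to 0.059). The cause was not tested.

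Same-numbered mice did not all deviate together, with r of 0.13, -0.0095 and 0.045 over genes for numbers 1 to 3. LT replicates 2 and 3 were each closest to another number. These values cannot show whether mice of the same number belong together, and their library names carry adjacent numbers. The main fit left the replicate number out. The replicate block called 0 genes and put Scd1 at 0.93. With 3 mice per group, low levels such as those of Scd2 and Elovl7 and the wide spread of Scd1 leave differences that would not be detectable.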
